A study of Homo sapiens with 2 samples.

Results

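Keratins and keratin-associated proteins were examined in PC3, an established human prostate cancer cell line derived from a bone metastasis and grown here in medium with 10% serum. The members were the probe sets whose platform annotation symbol starts with KRT or KRTAP followed by a digit. They numbered 140 of 23641 probe sets and 139 of 13864 named genes. By class they comprised 47 keratins, 84 keratin-associated proteins (KRTAP), 7 transcribed keratin pseudogenes and 1 antisense RNA, KRTAP5-AS1. The study compared a PC3 line that stably carried a control microRNA with a PC3 line that stably overexpressed miR-95, both in the same medium and otherwise untreated. The labels do not say whether either line was 1 clone or a pool, nor which vector was used. Each line was measured on 1 Affymetrix array, so there is no replicate error, no test and no p-value, and every value describes these 2 arrays.

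Keratins are the intermediate filament proteins of epithelia. A type I (acidic) and a type II (basic) keratin pair to build each filament, and the pairs used mark the kind of epithelium. Simple epithelia such as the luminal layer of the prostate use KRT8 and KRT18, basal cells use KRT5 and KRT14, and the hair shaft uses its own hair keratins. KRTAP proteins are small cysteine-rich or glycine- and tyrosine-rich proteins that embed the hair keratin filaments. They are encoded by gene clusters on chromosomes 11, 17 and 21, while the keratin genes lie on chromosomes 12 and 17.

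The labels of the arrays differ in the microRNA carried, control or miR-95. Whether other differences between the lines, cultures or arrays have a part in the values was not tested. The mature miR-95 strands are from RefSeq (GRCh38.p14, chr4:8005312-8005333 for the 3p strand and chr4:8005347-8005367 for the 5p strand, both on the minus strand). Capitals mark the seed, bases 2 to 8. Seed matches in the messages of the members were not searched.
hsa-miR-95-3p: uUCAACGGguauuuauugagca
hsa-miR-95-5p: uCAAUAAAugucuguugaauu

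A further set of sequences is shown because the detected members with the highest differences (miR-95 minus control), KRTAP1-5 and KRTAP2-3, lie in one cluster on chromosome 17 among close paralogs. Their promoter windows run from 250 bases before to 50 bases after the annotated start (RefSeq, GRCh38.p14, minus strand, chr17:41027159-41027458 for KRTAP1-5 and chr17:41060065-41060364 for KRTAP2-3). Capitals mark TATAAA, the core of the TATA box, and CTTTGAA, a core bound by LEF1 and TCF factors, searched on both strands.
KRTAP1-5: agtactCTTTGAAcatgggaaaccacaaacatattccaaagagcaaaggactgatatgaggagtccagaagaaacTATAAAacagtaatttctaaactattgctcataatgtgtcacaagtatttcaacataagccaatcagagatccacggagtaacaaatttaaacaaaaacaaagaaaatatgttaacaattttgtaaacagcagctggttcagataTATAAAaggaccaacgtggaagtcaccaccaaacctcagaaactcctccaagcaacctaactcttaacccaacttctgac
KRTAP2-3: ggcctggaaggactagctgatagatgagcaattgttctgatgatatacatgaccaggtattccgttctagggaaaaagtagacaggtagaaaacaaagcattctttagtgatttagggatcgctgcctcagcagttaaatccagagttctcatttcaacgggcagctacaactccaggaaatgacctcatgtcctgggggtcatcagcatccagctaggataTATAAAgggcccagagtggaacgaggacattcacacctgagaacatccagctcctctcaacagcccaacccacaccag

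To show how far the promoters of the paralogs resemble each other, the 80 bases that begin 10 bases before the TATAAA nearest to the start were lined up without gaps. In the KRTAP1 family capitals mark bases that differ from KRTAP1-5 (chr17:41027169-41027248, with KRTAP1-3 at chr17:41034835-41034914 and KRTAP1-1 at chr17:41041411-41041490).
KRTAP1-5: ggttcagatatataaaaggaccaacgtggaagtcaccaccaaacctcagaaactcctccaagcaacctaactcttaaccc
KRTAP1-3: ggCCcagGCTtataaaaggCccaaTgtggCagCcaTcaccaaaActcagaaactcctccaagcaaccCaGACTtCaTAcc
KRTAP1-1: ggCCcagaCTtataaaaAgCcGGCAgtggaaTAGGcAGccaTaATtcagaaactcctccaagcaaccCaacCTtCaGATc

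In the KRTAP2 family capitals mark bases that differ from KRTAP2-3 (chr17:41060073-41060152, with KRTAP2-4 at chr17:41065868-41065947, KRTAP2-1 at chr17:41047290-41047369 and KRTAP2-2 at chr17:41055234-41055313).
KRTAP2-3: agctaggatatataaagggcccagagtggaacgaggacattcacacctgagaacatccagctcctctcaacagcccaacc
KRTAP2-4: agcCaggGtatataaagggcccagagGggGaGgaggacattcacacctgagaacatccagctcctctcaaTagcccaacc
KRTAP2-1: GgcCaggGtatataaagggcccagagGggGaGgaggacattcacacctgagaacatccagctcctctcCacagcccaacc
KRTAP2-2: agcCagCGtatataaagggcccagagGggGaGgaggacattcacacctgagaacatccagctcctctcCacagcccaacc

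Within the KRTAP2 family these 80 bases were at least 91.2% identical, and KRTAP2-3 shared 92.5% with KRTAP2-4. Within the KRTAP1 family the identity was 67.5% to 76.2%, and between the families it was 41.2% to 47.5%. Over the whole 300-base windows, aligned with gaps, KRTAP2 genes were 55.8% to 71.6% identical and KRTAP1 genes 57.4% to 64.3%, against 51.1% to 56.0% between the families. The windows are set by the annotated starts, which put the TATAAA of the KRTAP2 genes at different distances, so the whole windows cover shifted stretches.

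**Figure D1:**
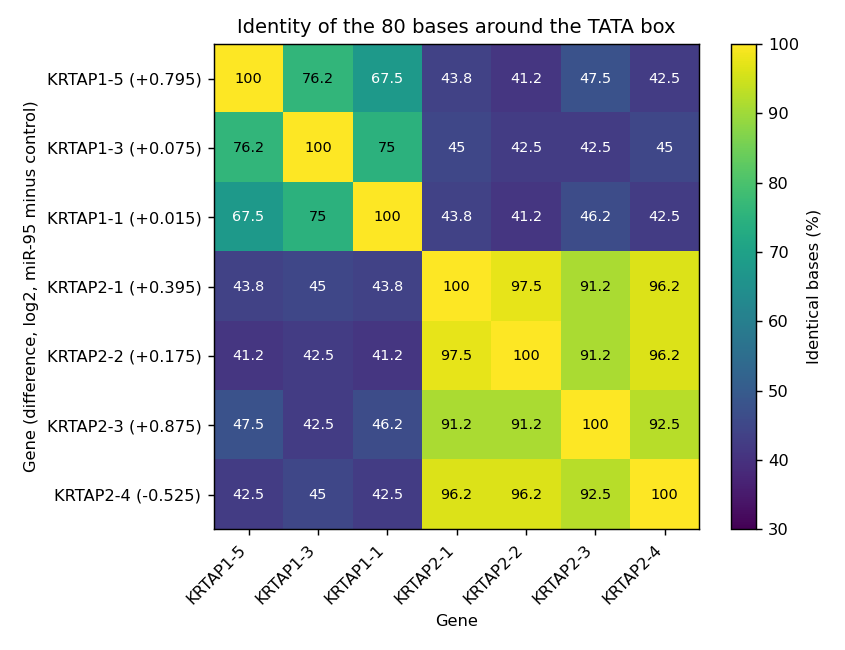
Share of identical bases (%, colour and number) in the 80 bases around the TATA box for each pair of the 7 measured KRTAP1 and KRTAP2 genes, with each gene's difference between the arrays (log2, miR-95 minus control) beside its name on the vertical axis. The 4 KRTAP2 genes form a block at 91.2% or more, and of these only KRTAP2-3 (0.875) was detected, the differences of the others coming from dim values.

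Values below are log2 expression as deposited, and differences are miR-95 minus control after each array was centred on its median over named genes (7.46 control, 7.495 miR-95). The centring lowered miR-95 values by 0.035 relative to control, so a difference between -0.035 and 0 was positive as deposited and counts of signs can shift. A gene counted as detected when it reached that median on at least 1 array. Brightness also depends on each probe set's own sequence, so the level of one gene is not set against that of another. Over 56 detected genes with 2 probe sets, the disagreement between their 2 differences gave a robust spread of 0.126 (log2) for 1 probe set. This spread is a guide to measurement disagreement and holds no variation between cultures. Over the 7081 detected genes the median difference was -0.035 with a robust SD of 0.148, and 59.4% were negative. As deposited, 3495 of them were positive and 3398 negative.

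All 4 measured markers of the epithelial line (EPCAM, KRT8, KRT18 and KRT19) were detected on these arrays. The 2 measured luminal secretory markers, KLK2 and KLK3, which PC3 is known to have lost, read between 6.53 and 6.66, and the 4 measured basal markers, KRT5, KRT14, DLL1 and NGFR, read between 5.25 and 6.69. Both sets lay below the detection rule. Of the 8 measured hair matrix, cortex and cuticle markers, 2 were detected, HOXC13 and S100A3. Among markers of other cell types, the leukocyte gene CD14 and the endothelial gene VWF lay below the rule, while KDR, the VEGF receptor, was detected (7.96 control, 8.28 miR-95). The fibroblast markers DCN (2.90 and 2.76) and LUM (7.33 and 6.04) lay below it too, LUM being 2.51-fold lower on the miR-95 array. Whether any of these has a part in the differences below was not tested.

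Of the 139 member genes 16 were detected, or 11.5% against 51.1% of all named genes. The limit is the array median, so the share of all named genes lies near 50% by the rule itself. These shares describe the brightness of probe sets. The 16 genes were 6 of 47 keratins, 9 of 84 KRTAP genes and 1 of 7 pseudogenes. On both arrays 14 of them reached the median, and KRT20 and KRTAP10-10 did so on only 1. At 1.5-fold 2 detected members were higher on the miR-95 array, where 0.395% of all detected genes were, and 1 was lower, where 0.861% were. Over all detected genes these shares stood for 28 higher and 61 lower, or 37 and 45 with the values as deposited. At 1.2-fold the counts were 2 higher, against 5.48% of detected genes, and 2 lower, against 8.45%. The other 12 differed by less than 2 of the spreads given above for 1 probe set, and 8 of them by less than 1 such spread. The 7 positive and 9 negative signs among the 16 became 9 and 7 with the values as deposited, so the balance of signs rested on the centring.

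**Figure D2:**
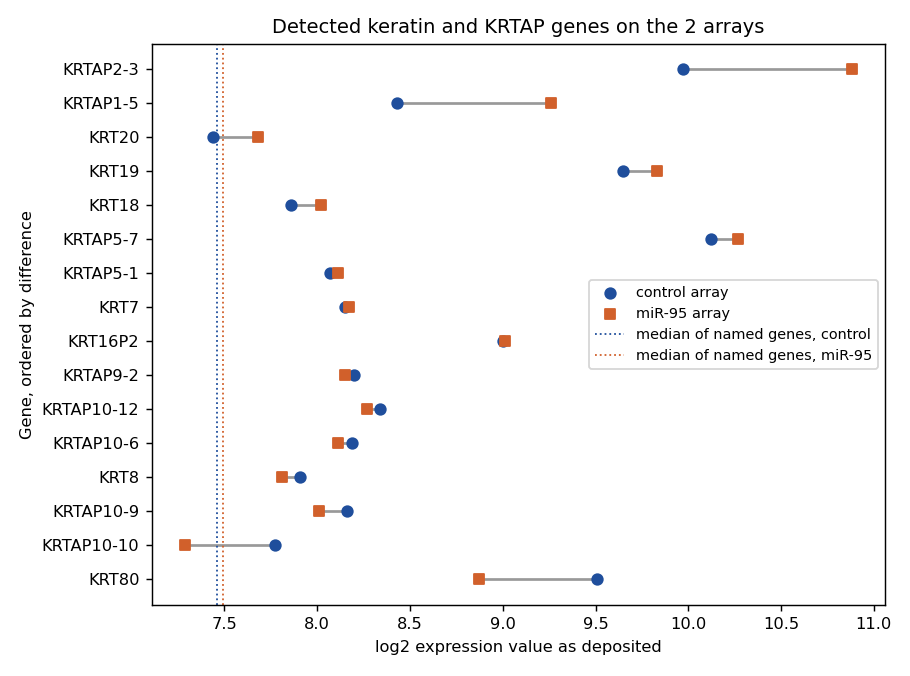
Log2 values as deposited of the 16 detected member genes on the control array (circles) and the miR-95 array (squares), 1 array each, ordered by difference, with dotted lines at the array medians of 7.46 and 7.495. KRTAP2-3 and KRTAP1-5 shift to the right on the miR-95 array and KRT80 and KRTAP10-10 to the left, while the symbols of KRT7, KRT16P2 and KRTAP5-1 almost coincide.

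The simple epithelial keratins were all detected, KRT20 on the miR-95 array only, and differed little. Of the 5 genes 3 had positive and 2 negative differences, with a median of 0.125. With the values as deposited the split was 4 and 1 and the median 0.16. KRT18, the type I partner of simple epithelia, read 7.86 on the control and 8.02 on the miR-95 array (difference 0.125). KRT8, its type II partner, read 7.91 and 7.81 (difference -0.135). The partners thus lay 0.26 apart in their differences. The spread of 0.126 is for 1 probe set and is too small a measure for a gap between 2.

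KRT7, a type II keratin of glandular and ductal epithelia, read 8.15 and 8.17 (difference -0.015, or 0.02 before centring). KRT19, the type I keratin that lacks most of the tail domain, read 9.65 and 9.83 (difference 0.145). KRT20, a keratin of intestinal epithelium and Merkel cells, read 7.44 and 7.68 (difference 0.205). Only the miR-95 value of KRT20 reached the array median, so its place among detected genes came from the array where it was higher. None of these 5 passed 1.2-fold in either direction.

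The basal and stress-induced keratins reached the array median on neither array. KRT5 and KRT14, the basal pair, read 5.49 and 5.25 on the control array and 5.67 and 5.27 on the miR-95 array. Their differences were 0.145 and -0.015, the second being positive as deposited. KRT15, a type I keratin of basal cells, read 7.04 and 7.11 (difference 0.035). KRT16, induced in wounded and hyperproliferating epidermis, read 7.45 and 7.09, which is 1.31-fold lower. Its control value missed the median of that array by 0.01, the nearest miss among the members, so a slightly lower limit would have counted it as detected. KRT6C, a type II keratin of the same setting, read 3.22 and 3.29. KRT6A, KRT6B and KRT17 were not analysed here.

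KRT80, a type II keratin of many epithelia that is found near desmosomes, was the detected member with the lowest difference. It read 9.51 on the control array and 8.87 on the miR-95 array, which is 1.60-fold lower. By that difference of -0.675, KRT80 stood 28th from the bottom among the 7081 detected genes. Among the 1948 named genes whose mean value lay within 0.5 of its own, 6 including KRT80 were as low or lower (0.308%). KRT23, a type I keratin, lay below the rule at 5.69 and 5.62.

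The keratins of stratified, root sheath and hair tissue were all below the detection rule. The 13 suprabasal and other stratified keratins, such as KRT1 and KRT10 of the differentiating epidermis, had control values of 3.14 to 6.39 and a median difference of 0.055. They ran from KRT9, the keratin of palms and soles, at -0.315 to KRT3, a corneal keratin, at 0.385. KRT1 and KRT10, partners in the filament, differed by 0.055 and 0.065.

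The 9 inner root sheath and companion layer keratins had 8 negative and 1 positive difference (median -0.145), and this split was the same under each scaling tried. The lowest was KRT73 (4.64 and 4.25, difference -0.425). The exception was KRT27, a type I keratin of the inner root sheath, which read 4.55 and 5.18 (1.51-fold higher). The 13 hair keratins went the other way, with 9 positive and 4 negative differences (10 and 3 as deposited) and a median of 0.145. They ran from KRT32, of the hair cuticle, at -0.235 to KRT33B, of the hair cortex, at 0.385, and 0 of them passed 1.5-fold. These counts are to be read against all 6783 genes below the rule, 54.2% of which had negative differences (median -0.015, or 0.02 as deposited). All the values are dim, and the members were chosen as a family, so the counts are a description only.

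By filament type, the 26 type I keratins had 16 positive and 10 negative differences (median 0.065) and the 21 type II keratins 7 positive and 14 negative (median -0.045). With the values as deposited these became 17 and 9, and 10 and 11 (medians 0.1 and -0.01). All 13864 named genes had 5979 positive and 7884 negative differences (median -0.025), or 7040 and 6474 as deposited. The 3 detected type I keratins were all positive and the 3 detected type II keratins all negative under median centring, but KRT7 turned positive with the values as deposited. KRT20, of type I, was counted as detected only through the miR-95 array, where it was higher, so these counts are a description only. The difference between the types was not tested.

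**Figure D3:**
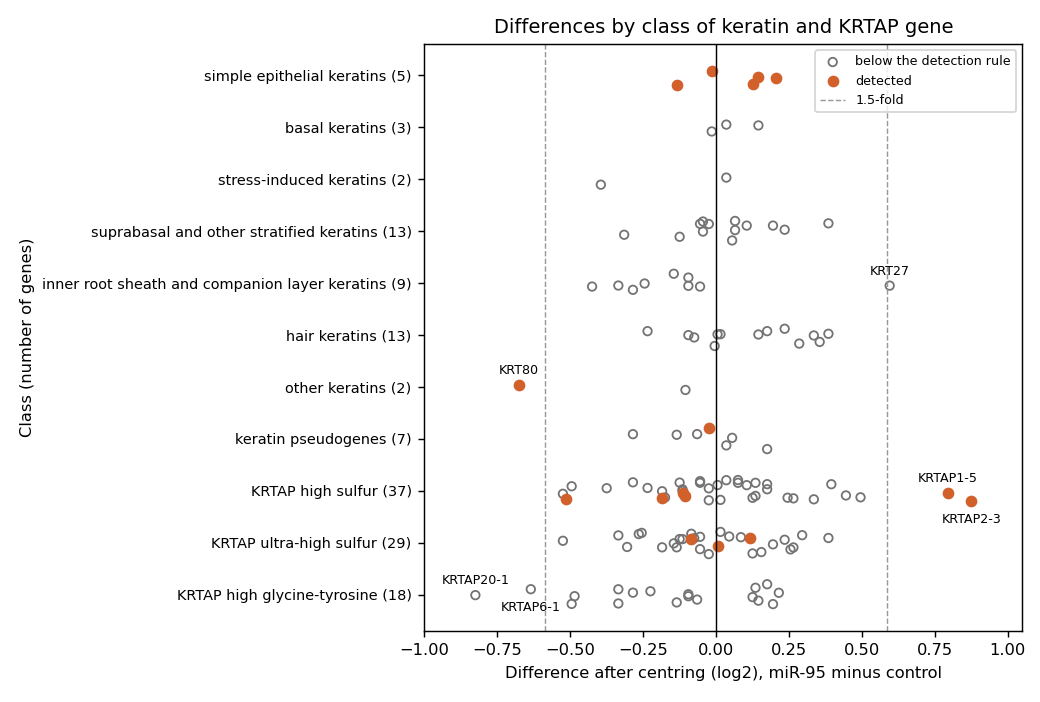
Difference between the arrays (log2, miR-95 minus control, after centring) of 138 member genes by class, with 1 point per gene, filled where the gene was detected, and dashed lines at 1.5-fold. KRTAP5-AS1 is not plotted, points are spread vertically only for legibility, and 6 genes lie beyond the dashed lines, 3 of them detected.

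Of the 7 keratin pseudogenes, which are transcribed copies of keratin genes, only KRT16P2 was detected (9.0 and 9.01, difference -0.025, or 0.01 before centring). It is a copy of KRT16, whose own probe set had a difference of -0.395. Copies share sequence with their parent genes, and the part of shared signal in either value was not tested. The remaining 6 pseudogenes had control values of 5.33 to 6.89, with differences from -0.285 for KRT19P2 to 0.175 for KRT42P. KRTAP5-AS1, an antisense RNA of the KRTAP5 cluster, read 7.13 and 7.04.

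Among the keratin-associated proteins the high sulfur gene KRTAP2-3 had the highest difference of all members. It read 9.97 on the control array and 10.88 on the miR-95 array, which is 1.83-fold higher. The difference of 0.875 ranked 3rd from the highest of the 7081 detected genes, and 2 of the 1315 named genes of like brightness, KRTAP2-3 included, were as high or higher (0.152%). KRTAP1-5, another high sulfur gene, read 8.43 and 9.26, which is 1.74-fold higher. The difference of 0.795 ranked 7th from the highest, and 4 of 2046 genes of like brightness were as high or higher (0.196%). Each of these genes was read by 1 probe set.

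The probe sets of their closest relatives were dim, so whether these genes share the difference cannot be read from them. KRTAP1-3 read 6.0 and 6.11 (difference 0.075), and KRTAP1-1 read 6.10 and 6.15 (difference 0.015). KRTAP2-1 read 4.87 and 5.30 (difference 0.395), and KRTAP2-2 read 5.18 and 5.39 (difference 0.175). KRTAP2-4, whose bases around the TATA box nearly match those of KRTAP2-3, read 4.77 and 4.28 (difference -0.525). All 5 of these relatives stayed under the median of either array, while KRTAP1-5 and KRTAP2-3 exceeded it on both. The genes of each family are close paralogs, but only their promoter windows were compared here, not the probe or message sequences. How much signal a probe set takes from a paralog was not tested. KRTAP1-4 was not analysed here.

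From KRT40 to KRTAP17-1 the cluster holds 35 protein-coding keratin and KRTAP genes, of which 30 were measured, with 16 positive and 14 negative differences. Only 3 of the 30 were detected, so the other signs come from dim values and do not show whether the neighbours share the difference. The 10 measured KRTAP1, KRTAP2 and KRTAP3 genes, which stand next to each other, had 8 positive and 2 negative differences (median 0.155), and this split was the same under each scaling tried. The 8 include KRTAP1-5 and KRTAP2-3, the detected members with the highest differences, and the others are dim. Genes of a family resemble each other, so these are not independent readings and the split is a description only. KRTAP3-1, the neighbour of KRTAP1-5, read 5.35 and 5.83 (difference 0.445). KRTAP3-2 read 5.87 and 5.79 and KRTAP3-3 read 3.96 and 4.13. Beyond KRTAP2-4, the 11 KRTAP4 genes had a median of -0.025, which turned to 0.01 with the values as deposited, and 0 of them were detected. The 6 KRTAP9 genes had 1 positive and 5 negative differences (median -0.1). KRTAP9-2, of the ultra-high sulfur class, was the detected one, at 8.20 and 8.15. These splits of signs stand beside 59.4% negative among all detected genes and 54.2% among those below the rule.

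**Figure D4:**
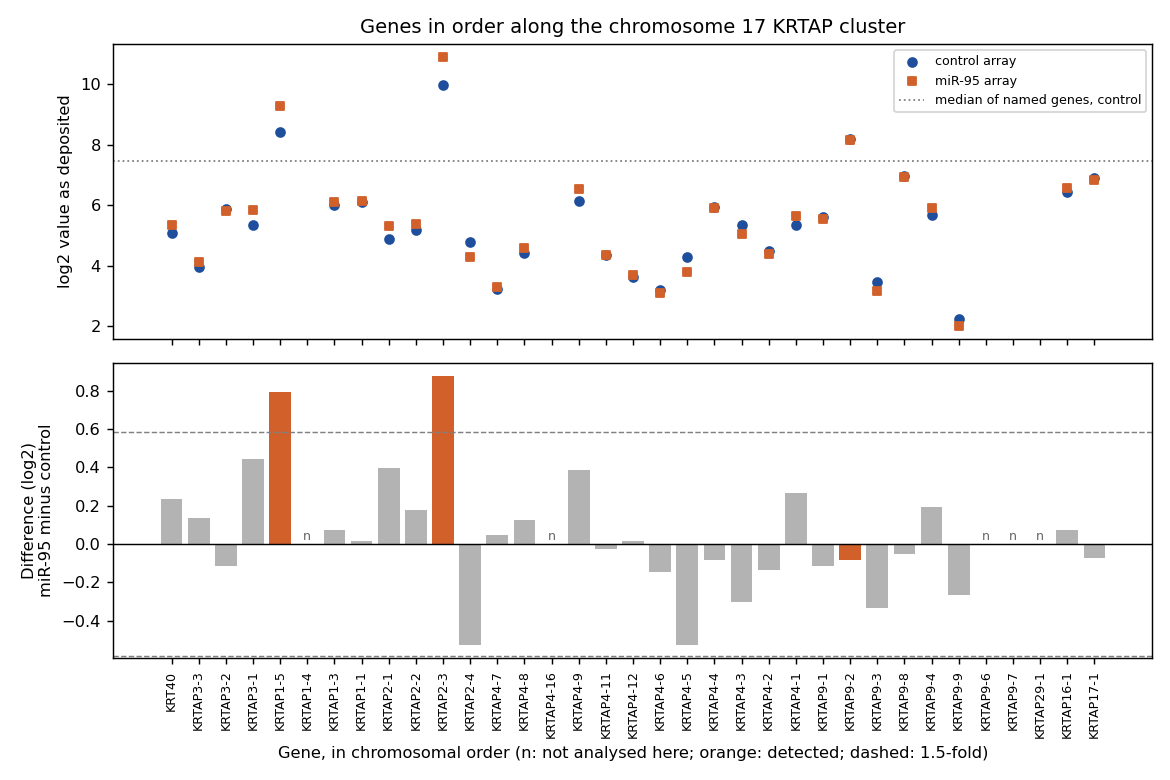
Genes of the chromosome 17 KRTAP cluster in chromosomal order on the horizontal axis, with log2 values as deposited on both arrays above and the difference (log2, miR-95 minus control, after centring) below, where orange bars are detected genes and n marks genes not analysed here. KRTAP1-5 and KRTAP2-3 lie past the dashed 1.5-fold line, with KRTAP1-3, KRTAP1-1, KRTAP2-1 and KRTAP2-2 between them at 0.015 to 0.395 and KRTAP2-4 beside them at -0.525, all 5 below the detection rule.

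The KRTAP10 genes are a high sulfur family on chromosome 21. Of 11 members 9 had negative and 2 positive differences, with a median of -0.185, and the split was the same under each scaling tried. Negative differences made up 59.4% of all detected genes and 54.2% of those below the rule. Of the 4 detected members, all negative, 1 passed 1.2-fold and 0 passed 1.5-fold. KRTAP10-10 read 7.77 on the control and 7.29 on the miR-95 array, which is 1.43-fold lower, and only its control value reached the array median. KRTAP10-9 read 8.16 and 8.01, KRTAP10-6 read 8.19 and 8.11, and KRTAP10-12 read 8.34 and 8.27. These last 3 differed by -0.185 to -0.105, close to the spread of 0.126 for 1 probe set. The highest of the family was KRTAP10-8, below the detection rule, at 0.245. Genes of this family also resemble each other, so the 11 values are not independent readings.

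The KRTAP5 genes, ultra-high sulfur members on chromosome 11, had 7 positive and 4 negative differences (median 0.085), and 9 of the 11 lay below the detection rule. All named genes had 5979 positive and 7884 negative differences. The KRTAP5 genes also resemble each other, so the 11 values are not independent readings. KRTAP5-7 was detected at 10.12 and 10.27 (difference 0.115) and KRTAP5-1 at 8.07 and 8.11 (difference 0.005). The others ran from KRTAP5-2 at -0.255 to KRTAP5-9 at 0.295. Read by chromosome, the 44 KRTAP genes of chromosome 21 had a median of -0.095, the 29 of chromosome 17 one of 0.015 and the 11 of chromosome 11 one of 0.085. The median over all named genes was -0.025.

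By protein class, over detected and dim genes together, the 37 high sulfur genes had a median of 0.005, the 29 ultra-high sulfur genes -0.055 and the 18 high glycine-tyrosine genes -0.115. None of the high glycine-tyrosine genes was detected. That class held the 2 KRTAP genes below the rule that were at least 1.5-fold lower. KRTAP20-1 read 5.02 and 4.23 (1.77-fold lower), and KRTAP6-1 read 4.32 and 3.72 (1.55-fold lower). KRTAP21-1 was the only member with 2 probe sets, which read 5.31 and 5.01, and 6.7 and 6.4, for the same difference of -0.335. KRTAP20-3, a neighbour of the same class, also read 5.31 and 5.01, and whether the probe sets share sequence was not tested.

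Among the members below the detection rule, 1 was at least 1.5-fold higher (KRT27) and 2 were at least 1.5-fold lower. Among all 6783 named genes below the rule 0.457% were higher and 0.988% lower by that much. The robust SD of the differences was 0.237 in these members and 0.193 in all genes below the rule. The members' spread was wider in some ranges of brightness and narrower in others. It was 0.297 against 0.193 for mean values of 5 to 6, where 51 members lay, and 0.148 against 0.163 for 6 to 7, where 23 lay.

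**Figure D5:**
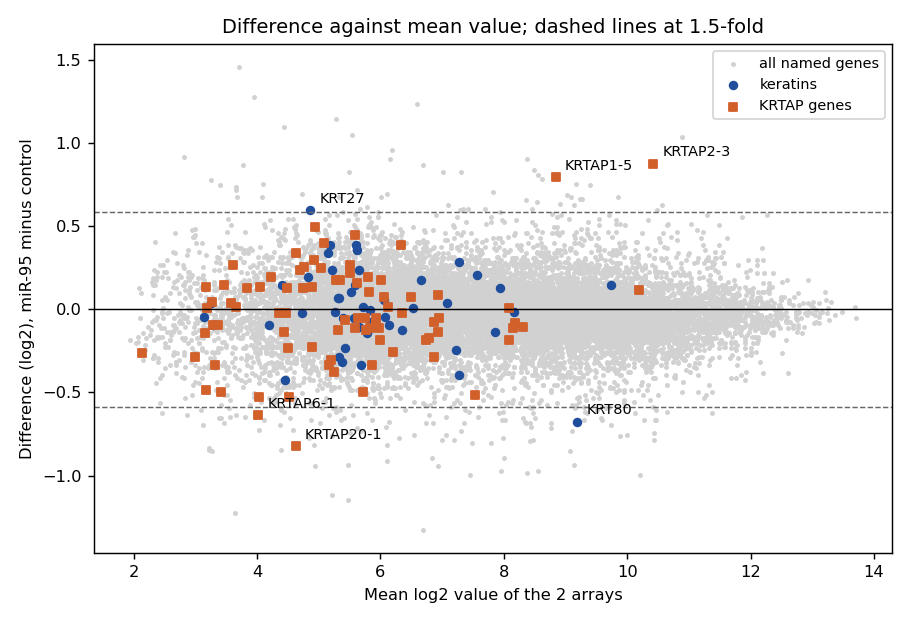
Difference between the arrays (log2, miR-95 minus control, after centring) against the mean log2 value of the 2 arrays for the 13864 named genes (grey), with keratins as blue circles and KRTAP genes as orange squares, and dashed lines at 1.5-fold. KRTAP2-3, KRTAP1-5 and KRT80 stand beyond the lines where most genes lie close to 0, while KRT27, KRTAP6-1 and KRTAP20-1 lie in the dim range on the left.

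Most members with a promoter window shared a feature that the choice by name did not use. A TATAAA on either strand was found in 72 of the 103 member genes with a promoter window (69.9%), against 12% of all 27305 RefSeq windows and 4.63% of the windows of 5837 detected genes that are no members. The share was 77.1% for KRTAP genes and 56.2% for keratins, and all 7 measured KRTAP1 and KRTAP2 genes had it. Among the 9 detected members with a window 5 had it (55.6%). On the message strand 69 members had it, at a median of 30 bases before the start. In 44 of these the copy lay at positions -40 to -20 from the start. CTTTGAA was in 18.4% of member windows and 4.53% of all windows, with 1 copy in KRTAP1-5 and none in KRTAP2-3. The AP-1 sequence TGANTCA was in 5.83% of member windows and 7.76% of all. The genes of a cluster are copies of one another, so these windows are not independent, and a match of letters is no evidence of binding.

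The partners of keratin filaments differed little. Of 17 measured desmosome and plakin genes 11 were detected, 4 positive and 7 negative, with a median of -0.055 and 0 past 1.5-fold either way. DSC2, a desmosomal cadherin, differed by 0.205 and JUP, plakoglobin, by 0.165, while DST, a plakin that anchors keratin, differed by -0.265 and PKP4, a plakophilin relative, by -0.115. The 5 detected genes of other intermediate filaments were all negative (median -0.135), where 59.4% of all detected genes were, and 0 passed 1.5-fold. LMNB2 and LMNB1, the B-type nuclear lamins, were lowest at -0.345 (1.27-fold lower) and -0.225. VIM, vimentin, was at -0.015, which is 0.02 as deposited. Of 7 genes listed for the hemidesmosome, apart from the plakins above, CD151 alone was among the named genes, and it differed by 0.025.

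The cornified envelope and hair shaft partners were mostly dim. Of 19 measured genes 1 was detected, S100A3, a calcium-binding protein of the hair cuticle, at 7.72 and 7.95. SPRR2A, a cornified envelope precursor, was 1.72-fold lower (7.38 and 6.63) below the detection rule. Of 17 measured transcription factors known to act on keratin or hair keratin genes, 8 were detected, 4 positive and 4 negative, with a median of -0.01 and 0 past 1.5-fold. HOXC13, which drives hair keratin genes in the follicle, was the lowest of them (7.50 and 7.27, difference -0.265), reaching the median only on the control array. KLF5 differed by -0.225, CUX1 by 0.095 and GATA3 by 0.025. The median of the 8, and TFAP2C at -0.025, were positive with the values as deposited. LEF1 lay below the rule at 4.64 and 4.70, as did FOXN1 at 6.12 and 6.02, and OVOL1, an epidermal repressor, was 1.63-fold lower there (6.43 and 5.76).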

How the data were processed

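RNA from PC3 cells carrying a control microRNA or miR-95 was measured on 1 Affymetrix array each. The deposited log2 values, 1 per probe set and rounded to 2 decimals, were made by the authors with Affymetrix Expression Console 1.2, per the submitters' processing notes. For summarisation, background correction, scaling and build the method was not given in the sources used here. That the scale is log2 was read from the values (1.79 to 13.84), and the column medians were 7.15 (control) and 7.16 (miR-95). Platform annotation named 14088 probe sets. All 139 member genes matched RefSeq (GRCh38.p14), used for names, gene order and promoter windows.

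Probe sets of a gene were averaged, each array was centred on its median over named genes, and genes at or above that median on at least 1 array counted as detected. Promoter windows, the first listed per gene, existed for 103 members. They were aligned with Biopython 1.88. Another 18 protein-coding keratin and KRTAP genes of RefSeq were not analysed here. All detected members are named, with members below the rule past 1.5-fold and the extremes of each class. The members and lists were chosen with earlier results of these data known. The steps were tested on simulated data. With 1 array per group no test was possible, and the number of arrays limits the precision. Alternatives changed the centring, the filter, the probe set rule, an offset of 32 and the fold limit.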

Additional observations from a re-analysis of the deposited data

How the results depend on the processing

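The 2 members past 1.5-fold upwards (KRTAP1-5 and KRTAP2-3) and the 1 downwards (KRT80) were the same genes under each of 4 other scalings, detection at the 25th or 75th percentile, the brightest probe set and an offset of 32. With no filter on dim genes 3 were higher and 3 lower. At 1.2-fold 2 were lower, and at 2-fold 0 were higher and 0 lower. Detection at the 75th percentile left 5 members. The medians became -0.265 for keratins, 0.795 for KRTAP genes and 0.835 for high sulfur KRTAP genes, from 0.055, -0.085 and -0.11 over detected genes, because fewer genes counted. Under that filter KRTAP1-5 counted only through the miR-95 array (9.26, against 8.43 on the control array). KRT80 counted only through the control array (9.51, against 8.87 on the miR-95 array). Each passed through the array where it was higher, so these medians are a description only. With no filter or detection at the 25th percentile the keratin median was -0.005 and the ultra-high sulfur median, 0.005 over detected genes, was -0.055, and with no filter the high sulfur median was 0.005, so the signs of these medians rest on the filter. Of the 16 differences 2 changed sign under some alternative, KRT7 and KRT16P2, and 0 of the 16 moved by as much as 0.126 under any of them. The filters cannot change a gene's difference. Each of the 16 genes has 1 probe set, so the probe set rule acted only through the centring. Only the scalings and the offset could move a difference further. Across alternatives KRTAP2-3 ranged from 0.86 to 0.92, KRTAP1-5 from 0.74 to 0.83 and KRT80 from -0.675 to -0.640. Low signal limits most members, since only 16 of 139 reached an array median. No paired analysis was possible because each group has 1 array.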

Other observations

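The promoter window of KRTAP2-3 holds the letters TTCAACGGG, 97 bases before the start, which are also the first 9 bases of miR-95-3p with T for U. They were found on either strand in 6 of 27305 RefSeq windows (0.022%), and KRTAP2-3 was the only member among them. The first 8 of these letters were in 38 windows, and the 9 detected genes with such a window had a median difference of -0.035, with 3 positive, 6 negative and 1, KRTAP2-3, at least 1.5-fold higher. The match was noticed after the value of KRTAP2-3 was seen. It describes letters in a reference window and was not tested further.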
